A study of Mus musculus with 8 samples.

Results

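Rtp1, Rtp2, Reep1, Reep5 and Reep6, genes of the receptor-transporting and receptor-expression-enhancing families, were followed across light and heavy polysomes of the mouse main olfactory epithelium. They were taken by gene symbol and make up 5 of the 21765 rows of the deposited expression table. The epithelium lines the nasal cavity and holds olfactory sensory neurons, the progenitors that replace them, and supporting and gland cells. RNA on polysomes was sequenced in 8 libraries from 4 tissue lysates, 2 of wild-type (WT) and 2 of conditional knockout (cKO) mice, with an early and a late polysome library from each lysate.

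All lysates were of main olfactory epithelium treated at dissection with 100 µg/mL cycloheximide, which halts ribosomes on their transcripts. Apart from WT early replicate 2, described below, the WT labels gave Mex3a flox/flox or Mex3a flox/+ alleles and no Cre. The cKO mice carried Mex3a flox/flox together with a Cre line that is not reported here. Mex3a encodes an RNA-binding protein, and its deletion acts only in cells that express Cre or descend from them. Early polysomes were pooled from sucrose gradient fractions 27 to 34 and late, heavier polysomes from fractions 35 to 42. The labels give neither the age of the mice nor the number pooled per lysate, and nothing states that the lysates came from separate animals, so p-values measure only the spread between these libraries. The genotype tag of WT early replicate 2 names the cKO genotype, while its title and library name say WT. It was kept as WT, and values without it are given where they change a call.

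Odorant receptors are multi-pass membrane proteins that are poorly released from the endoplasmic reticulum (ER) when made in other cell types. Rtp1 and Rtp2 encode membrane proteins of olfactory sensory neurons that help these receptors leave the ER and reach the cell surface. Reep1, found in the same kind of screen as a weaker helper, and its relatives Reep5 and Reep6 encode hairpin proteins that bend the ER membrane into tubules. In other settings Reep1 is a gene of hereditary spastic paraplegia and Reep6 is needed in rod photoreceptors.

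Rtp1 and Rtp2 are close relatives in sequence, which bears on whether reads of one can be told from reads of the other. In GENCODE M21 on GRCm38, Rtp1 (ENSMUSG00000033383.6) lies on the plus strand of chromosome 16 at 23429133 to 23433960, and Rtp2 (ENSMUSG00000047531.9) on the minus strand of the same chromosome at 23925548 to 23932394. Both have 2 exons. Their coding sequences, 789 and 669 nt, are identical at 545 of 663 aligned positions (82.2%). The longest run that the 2 transcripts share exactly is 47 nt and lies within the coding part of a single exon in each. It is shown in capitals with 20 nt on either side, as read 5′ to 3′ along the mRNA, from coding position 545 to 631 of Rtp1 (chr16:23431431-23431517, plus strand) and 437 to 523 of Rtp2 (chr16:23927357-23927443, minus strand).
Rtp1: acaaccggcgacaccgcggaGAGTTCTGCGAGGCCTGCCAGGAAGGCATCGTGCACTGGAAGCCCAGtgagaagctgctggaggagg
Rtp2: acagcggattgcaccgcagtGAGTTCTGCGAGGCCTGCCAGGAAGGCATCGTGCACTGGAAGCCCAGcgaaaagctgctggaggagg
A read longer than 47 nt always spans a difference between the pair in this annotation, whereas a shorter one may fit both. The read length and the treatment of reads that fit several genes are not given in the sources used here, so the levels of Rtp1 and Rtp2 may share some reads. No other pair among the 5 genes shared an exact run longer than 13 nt.

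The 3 Reep genes are spread over 3 chromosomes. Reep1 lies on chromosome 6 at 71707561 to 71810710 (plus strand, 7 exons), and 2 provisional gene models on the same strand, Gm44769 and Gm44770, overlap it. Reep5 lies on chromosome 18 at 34344885 to 34374070 (minus strand, 5 exons) and Reep6 on chromosome 10 at 80329953 to 80336441 (plus strand, 6 exons). The coding sequence of the principal transcript is 603 nt in Reep1, 567 nt in Reep5 and 603 nt in Reep6, so all 5 genes encode short proteins.

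The libraries held 7776792 to 12771079 reads as inferred from the steps of the deposited values, fewest in cKO late replicate 2, and 17852 to 18966 genes were above 0 in each. Mex3a, the targeted gene, stood at 93.2 to 115.6 transcripts per 1000000 (TPM) in the WT libraries and at 11.1 to 19.8 in the cKO libraries. The library with the conflicting tag was at 115.6 TPM, among the WT values. Mex3a fell in cKO by 2.55 on the log2 scale in early polysomes (SE 0.18, adjusted p = 0.00457, limma) and by 2.79 in late polysomes (SE 0.18, adjusted p = 0.00282). None of the 11 mature olfactory neuron markers was at 0 in all libraries, and they summed to 7745 to 12593 TPM per library.

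Rtp1 was the most abundant of the 5 transcripts, at 286 to 532 TPM, and ranked between the 96.7th and 98.8th percentile of the 16097 genes tested. Rtp2 followed at 142 to 268 TPM (92.1st to 96.8th percentile). The 3 Reep transcripts were lower, with Reep5 at 50.3 to 98.9 TPM, Reep6 at 35.6 to 71.8 and Reep1 at 30.5 to 46.7. Behind these values stood 3456 to 7238 inferred reads per library for Rtp1, 1284 to 2836 for Rtp2, 407 to 1371 for Reep5, 262 to 637 for Reep6 and 312 to 852 for Reep1. Mean levels over the 8 libraries, after scaling between libraries, ran from Rtp1 (378 TPM) through Rtp2 (190), Reep5 (74.3) and Reep6 (50.6) to Reep1 (38.4). Rtp1 lay above Rtp2, and Rtp2 above the 3 Reep genes, in 8 of 8 libraries, whereas the ranges of the Reep genes overlapped. TPM is per transcript length, so levels can be compared between genes within a library. The ratio of Rtp1 to Rtp2 varied little, at 1.86 to 2.09 with a median of 2.02, while that of Rtp1 to Reep1 ran from 6.84 to 15.9. The part of reads shared by Rtp1 and Rtp2 in the first ratio was not tested.

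**Figure D1:**
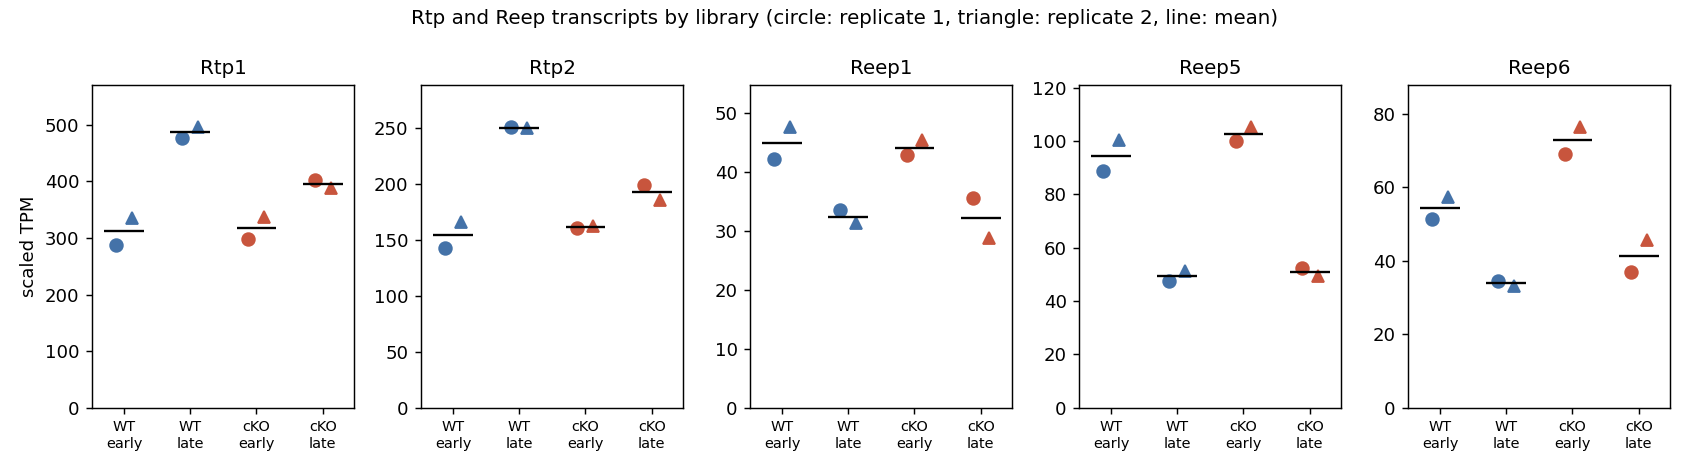
Scaled TPM (y axis, starting at 0 and drawn separately for each gene) of Rtp1, Rtp2, Reep1, Reep5 and Reep6 in the 4 groups; circles are replicate 1, triangles replicate 2 and lines the mean of 2. Both Rtp transcripts are highest in WT late libraries, and the 3 Reep transcripts are lower in late than in early libraries of both genotypes.

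The first comparison asked where these transcripts sit on the gradient, since heavier polysomes carry more ribosomes per transcript. TPM is relative to all other transcripts of a library, so a higher value in late polysomes is a higher share there and not a larger amount. Both Rtp transcripts were higher and all 3 Reep transcripts lower in late than in early polysomes, averaged over genotypes. All 5 passed an adjusted p of 0.05 (limma), but so did 68.9% of all genes tested, 34.3% higher and 34.6% lower. Against that background, the count of calls says little about these 5 genes, and their directions and sizes are given for each.

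Rtp1 stood at 287 and 329 TPM in WT early and 505 and 532 in WT late libraries (replicates 1 and 2). In cKO it stood at 286 and 316 TPM in early and 410.0 and 411 in late libraries. Late libraries were above early ones in both genotypes with no overlap, and the WT late pair lay above the cKO late pair. After scaling, WT means were 312 ± 33.5 TPM for early and 486 ± 13.2 for late polysomes, and cKO means 317 ± 27.4 for early and 396 ± 9.81 for late (SD, n = 2 each). Rtp1 rose 1.40-fold in late polysomes on average (log2 0.48, SE 0.082, adjusted p = 0.000842, limma).

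Rtp2 showed the same order of groups at a lower level. WT early libraries held 142 and 163 TPM of Rtp2 and WT late libraries 265 and 268. The cKO libraries held 154 and 152 TPM when early, 203 and 196 when late. Scaled WT means were 154 ± 16.3 TPM for early and 250.2 ± 0.857 for late polysomes, and cKO means 161 ± 1.25 for early and 193 ± 9.74 for late (SD, n = 2 each). The average rise was 1.39-fold (log2 0.48, SE 0.072, adjusted p = 0.000453, limma).

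Reep1 moved the other way, and least of the 5 on average over genotypes, though within cKO the Rtp values were smaller. WT early libraries held 41.9 and 46.7 TPM of Reep1 and WT late libraries 35.4 and 33.5. The cKO values were 41.1 and 42.6 TPM for early, 36.2 and 30.5 for late polysomes, and late lay below early without overlap in both genotypes. From early to late, scaled means went from 44.8 ± 3.85 to 32.4 ± 1.55 TPM in WT and from 44.1 ± 1.77 to 32.2 ± 4.73 in cKO (SD, n = 2 each). The late level was 73.1% of the early level on average (log2 -0.45, SE 0.088, adjusted p = 0.00186, limma), and the genotypes nearly coincided.

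Reep5 had the largest difference of the 5 genes. WT early libraries held 88.1 and 98.5 TPM of Reep5 and WT late libraries 50.3 and 54.8. Values of cKO were nearly the same, 95.9 and 98.9 TPM for early and 53.4 and 52.1 for late polysomes. From early to late, scaled means went from 94.4 ± 8.35 to 49.3 ± 2.55 TPM in WT and from 103 ± 3.75 to 50.9 ± 2.19 in cKO (SD, n = 2 each). The late level was 51.4% of the early one (log2 -0.96, SE 0.071, adjusted p = 2.1e-05, limma).

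Reep6 fell as well, from 51.2 and 56.4 TPM in WT early to 36.6 and 35.6 in WT late libraries, and from 66.4 and 71.8 in cKO early to 37.7 and 48.2 in cKO late libraries. Scaled means went from 54.4 ± 4.27 to 33.9 ± 0.996 TPM in WT and from 72.8 ± 5.09 to 41.3 ± 6.10 in cKO (SD, n = 2 each). The late level was 60.01% of the early one (log2 -0.74, SE 0.088, adjusted p = 0.000123, limma). The cKO early libraries were the highest, and the 2 cKO late libraries differed more from each other than any other pair of Reep6 replicates.

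Within WT alone all 5 genes passed (limma), where 54.8% of all genes did, 27.1% higher and 27.7% lower. The log2 change was 0.64 for Rtp1 (SE 0.12, adjusted p = 0.00217), 0.70 for Rtp2 (SE 0.10, adjusted p = 0.000942), -0.46 for Reep1 (adjusted p = 0.0146), -0.92 for Reep5 (adjusted p = 0.000402) and -0.67 for Reep6 (adjusted p = 0.00256). Late and early libraries of WT did not overlap for any of the 5, as for 39.8% of all genes that were higher and 40.4% that were lower. The Reep1 call rested on single libraries: it was lost without WT early replicate 2, the one with the conflicting tag (-0.37, adjusted p = 0.101), and without WT late replicate 2 (-0.41, adjusted p = 0.0851).

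Within cKO 4 of the 5 genes passed (limma), where 58.1% of all genes did, 28.9% higher and 29.2% lower. Reep5 fell by 1.00 on the log2 scale (adjusted p = 0.000221), Reep6 by 0.81 (adjusted p = 0.000868) and Reep1 by 0.45 (adjusted p = 0.0145). Rtp1 rose by 0.32 (SE 0.12, adjusted p = 0.0408), and Rtp2, with a log2 value of 0.25 (SE 0.10, adjusted p = 0.0603), missed the threshold. Late and early libraries of cKO did not overlap for any of the 5, as for 40% of all genes in each direction. The Rtp1 call in cKO was lost in 9 of 18 alternatives. With both libraries of a lysate paired as a replicate block its adjusted p was 0.0599, and without cKO early replicate 1, cKO late replicate 1 or cKO late replicate 2 it was 0.188, 0.122 and 0.0862. It was also lost without WT late replicate 1 (adjusted p = 0.0646) or WT late replicate 2 (adjusted p = 0.0647), which share the estimate of the spread. In the fit of only the 4 cKO libraries it was 0.0782, with no filter on low values 0.0545 and without a mean-variance trend 0.0587. Reep1 in cKO lost its call without cKO early replicate 2 (adjusted p = 0.0764) or cKO late replicate 2 (adjusted p = 0.0899).

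The 4 lysates agreed in direction for all 5 genes. The share of all genes with such agreement was not counted, while 68.9% of all genes passed on average. WT lysates had late-minus-early log2 changes of Rtp1 of 0.73 and 0.56, and cKO lysates of 0.43 and 0.21. For Rtp2 the WT lysates gave 0.81 and 0.59, the cKO lysates 0.31 and 0.19. For both Rtp genes each cKO lysate lay below each WT lysate, as for 14.3% of all genes, and a further 14.9% had the opposite order. The Reep genes showed no such order: Reep1 ran from -0.32 and -0.59 in WT to -0.26 and -0.63 in cKO, Reep5 from -0.88 and -0.96 to -0.92 and -1.08, and Reep6 from -0.56 and -0.77 to -0.89 and -0.73.

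**Figure D2:**
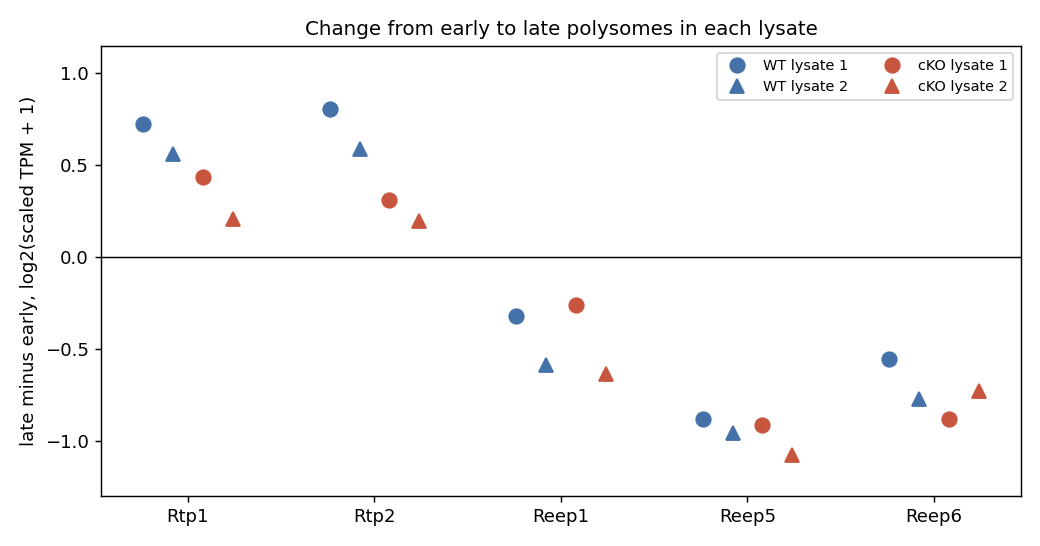
Late-minus-early change of each gene in each of the 4 lysates (y axis, difference of log2(scaled TPM + 1); blue WT, red cKO; circles lysate 1, triangles lysate 2). The Rtp genes lie above 0 and the Reep genes below 0 in 4 of 4 lysates, an agreement not counted over all genes. The cKO lysates are the lower pair for Rtp1 and Rtp2, as for 14.3% of all genes.

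Scaling moved the size for the abundant Rtp transcripts. Under quantile normalization, which forces all libraries to one distribution, the average log2 rise of Rtp1 was 0.77 and its rise in cKO 0.64. With TPM as deposited, in which the median of all genes shifted by 0.087 on the log2 scale, or under quantile normalization, Rtp2 passed in cKO as well (adjusted p = 0.0103 and 0.00876). From early to late, the direction of all 5 genes was the same under each scaling.

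Position on a polysome gradient depends on coding length, because a longer coding sequence has room for more ribosomes. Genes with a GENCODE coding length (91.2% of those tested) were divided into 10 classes of equal size by their longest coding sequence. The median late-minus-early log2 change rose from -1.12 in the class of the shortest sequences to 0.50 in that of the longest. All 5 genes have a short principal coding sequence, so each was set beside its class.

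Rtp1, in the class of 786 to 942 nt with 1468 genes, lay 0.75 log2 above the class median of -0.27, and 90.1% of the class lay below it. Over the lysates the difference was 0.76 ± 0.17 (SD, n = 4). Rtp2, in the class of 555 to 786 nt with 1469 genes, lay 1.11 above a median of -0.63, with 95.03% of the class below it (1.11 ± 0.23 over the lysates, SD, n = 4). Among transcripts of such coding length, the pair had a larger share in late polysomes relative to early ones than most.

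The place of the Reep genes depended on the length used. Reep5, in the same class as Rtp2, lay 0.33 below its median, with 21.0% of the class below it. Reep1 and Reep6 depend on which transcript is taken. With the longest coding sequence of any transcript, 852 nt for Reep1 and 1797 nt for Reep6, they lay 0.19 and 1.02 below their class medians, with 36.7% and 2.79% of the class below them. With the principal transcript of 603 nt each, an alternative added after the values were seen, Reep1 lay 0.18 above and Reep6 0.11 below, with 64.1% and 41.1% of the class below them. With the principal transcript, Rtp1 lay 0.74 and Rtp2 1.10 above their class medians. Matched on the length of the whole longest transcript instead, Rtp1 lay 0.46 and Rtp2 0.57 above (73.8% and 76.0% of the class below them). On that measure Reep5 lay 0.98 below and Reep1 and Reep6 0.54 below each, with 6.51%, 20.8% and 19.8% of the class below them.

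**Figure D3:**
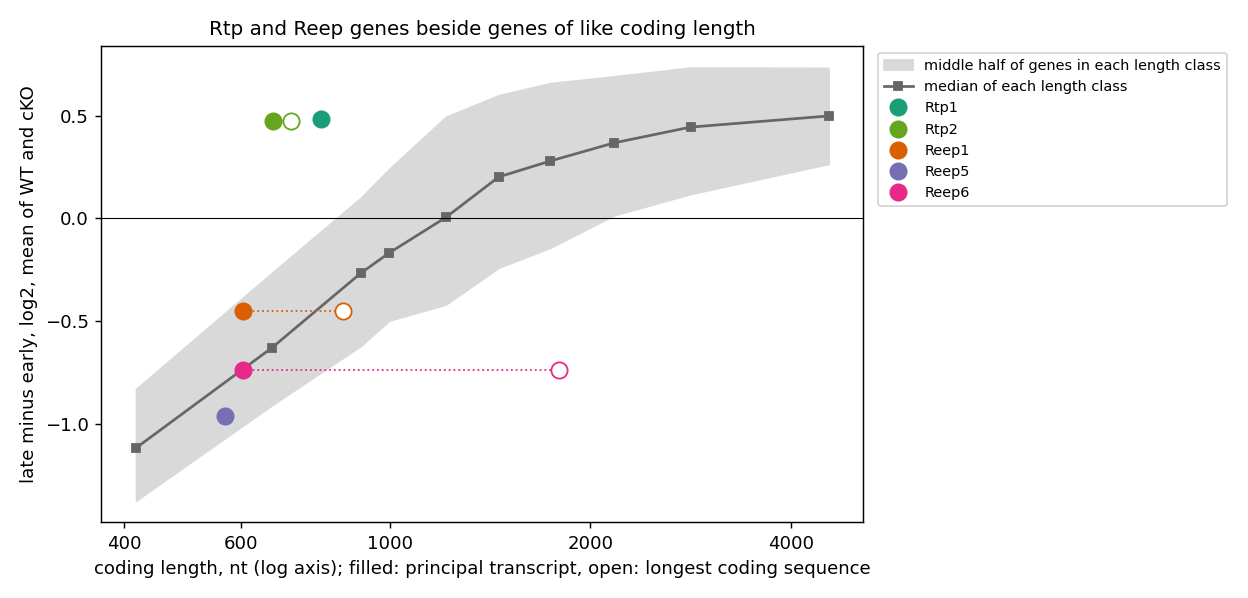
Average late-minus-early log2 change (y axis) against coding length in nt (x axis, log scale); the grey line joins the medians of 10 length classes and the band spans their quartiles, filled points use the principal transcript and open points the longest coding sequence. Rtp1 and Rtp2 lie above the band, Reep5 near its lower edge, and Reep1 and Reep6 within it at their principal length, while Reep6 lies below it at its longest coding sequence.

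The other measured Rtp and Reep genes were less abundant, apart from Reep3. Of 5, all had a row and 4 were tested. Rtp3 was listed at 0 in 6 of 8 libraries, with 1 read in WT late replicate 2 and 2 in cKO late replicate 2. Rtp4, an interferon-induced relative that lies on chromosome 16 between Rtp1 and Rtp2, stood at 3.46 to 12.3 TPM, and its log2 change on average was -0.09 (SE 0.27), within its error. Reep2 stood at 2.18 to 3.93 TPM with a change of 0.15 (SE 0.15). Reep3, which with Reep4 clears ER membrane from chromosomes in mitosis, stood at 44.1 to 82.2 TPM and fell by 0.82 in late polysomes (SE 0.076, adjusted p = 3.95e-05, limma), close to Reep5 and Reep6.

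Reep4 was the one whose fractions differed in direction between genotypes. WT libraries held 17.0 and 20.8 TPM of Reep4 when early, 15.3 and 19.3 when late. The cKO libraries held 16.9 and 16.2 TPM when early, 26.0 and 27.1 when late, on 108 to 167 reads each over all 8. It rose in cKO by 0.53 on the log2 scale (adjusted p = 0.0134, limma), while the WT value was -0.23 (adjusted p = 0.218). The difference between these changes was 0.76 (SE 0.21, adjusted p = 1.0, limma) and did not pass, although both cKO lysates lay above both WT lysates, as for 14.9% of all genes tested.

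Further lists place the 5 genes among others of the same work. Of 17 genes that shape ER membranes, 9 rose and 6 fell in late polysomes on average, where 34.3% of all genes rose and 34.6% fell. Their median log2 change was 0.22, beside -0.01 over all genes tested. Ckap4, a protein of ER sheets, rose by 0.70 (adjusted p = 0.00011, limma), and Atl3 and Atl2, GTPases that fuse ER tubules, by 0.70 and 0.62. Tmem33 fell by 0.59, Rtn2, a reticulon, by 0.45, and Arl6ip1, a hairpin protein like the Reep family, by 0.44. Of 14 escort and ER export genes, 11 were tested, and 1 rose and 9 fell, beside 34.3% and 34.6% of all genes (median -0.63, beside -0.01 over all genes). Bcap31, an ER export chaperone, rose by 0.64 (adjusted p = 3.78e-05, limma). Cnih1, a cargo receptor of COPII vesicles, fell by 1.20, Ramp1, an escort of the calcitonin receptor-like receptor, by 1.14, and Tmed2, a vesicle cargo receptor, by 1.03. Rtp1 and Rtp2 had the direction of Bcap31, opposite to 9 of the 11 tested genes of this list. No gene list was matched on coding length, so list medians beside that of all genes cannot be read apart from length.

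Receptor choice in olfactory neurons is locked in by a feedback loop that starts when receptor protein engages the ER stress kinase Perk. Of 6 genes listed around this loop, 3 rose and 2 fell in late polysomes (median 0.26), a count near the 68.9% of all genes that passed. Adcy3, the adenylyl cyclase of olfactory cilia, rose by 1.58 (adjusted p = 2.17e-05, limma), Kdm1a, a histone demethylase, by 0.88 and Eif2ak3, which encodes Perk, by 0.46. The transcription factor genes Ddit3 and Atf5 fell by 1.12 and 0.93.

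Cell type markers moved between fractions too. Of 11 mature neuron markers, 8 rose and 3 fell, although their summed level was 10436 to 12593 TPM in early and 7745 to 9315 in late libraries. The 3 that fell, Omp (log2 -0.83), Stoml3 (-0.76) and Gng13 (-1.73), named after their values were seen, are abundant, with Omp alone at 2439 to 5393 TPM. Of 10 sustentacular (supporting) cell markers, 8 rose and 1 fell. Of all genes, 34.3% rose and 34.6% fell. Per 100 TPM of mature neuron markers, Rtp1 stood at 2.56 to 2.95 in early and 4.86 to 5.80 in late libraries, a ratio whose denominator rests mostly on the markers that fell. The markers, like the gene lists, were not matched on coding length, and the part of cell composition in the late-minus-early changes was not tested.

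The genotype comparison asked whether the loss of Mex3a changes these transcripts on polysomes. None of the 5 passed in early polysomes (limma), where 0.0435% of all genes did, and 1 of 5, Reep6, had an unadjusted p under 0.05, against 6.65% of all genes. None passed in late polysomes, where 0.0124% of all genes did, and 2 of 5, Rtp1 and Rtp2, had an unadjusted p under 0.05, against 9.36%. On the mean of both fractions of a lysate none passed, where 0.00621% of all genes did, and 1 of 5, Reep6, had an unadjusted p under 0.05, against 11.3%. In bulk tissue, fewer cells of a type and less RNA per cell cannot be told apart.

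The Rtp transcripts were nearly level between genotypes in early polysomes, with log2 values of 0.025 for Rtp1 and 0.066 for Rtp2 (SE 0.12 and 0.10). In late polysomes cKO libraries lay below WT libraries without overlap. The cKO level was 81.4% of the WT level for Rtp1 (log2 -0.30, SE 0.12, adjusted p = 0.492, limma) and 77.0% for Rtp2 (log2 -0.38, SE 0.10, adjusted p = 0.369). Of all genes, 20.1% were lower in late polysomes of cKO without overlap. On lysate means the cKO level was 91.0% of the WT level for Rtp1 (log2 -0.14, SE 0.080, adjusted p = 0.559, limma). For Rtp2 it was 89.8% (log2 -0.16, SE 0.070, adjusted p = 0.468, limma). Lysates did not overlap for either gene, as for 20.8% of all genes in this direction. The values of Rtp1 and Rtp2 may not be independent, given the shared sequence.

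Summed levels of neuron marker lists, of olfactory ensheathing glia markers and of odorant receptor genes were also lower in the cKO late libraries, although no marker passed. The summed mature neuron markers stood at 8701 to 9315 TPM in WT late and 7745 to 8441 in cKO late libraries, with 0 of 11 markers passing (limma) and a median log2 change of -0.07. Cnga4, a mature neuron marker named after its values were seen, was higher, at 150.3 to 180 TPM in WT late and 197 to 199 in cKO late libraries. Immature neuron markers summed to 3272 to 3398 and 2821 to 2949 TPM, with 0 of 10 passing and a median of -0.10, and the 1193 odorant receptor genes to 2750 to 2799 and 2324 to 2444 TPM. Olfactory ensheathing glia markers summed to 706 to 850 and 588 to 605 TPM, with 0 of 6 passing and a median of -0.34. Bowman gland markers went the other way, at 13654 to 14906 TPM in WT late and 16602 to 16966 in cKO late libraries. Summed globose basal, blood and immune, and microvillous cell markers were also higher in cKO late libraries. No marker of the cell type lists was at 0 in all libraries, and 13 of the receptor genes were.

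Ratios to the mature neuron and receptor sums kept the order of the late groups, but the relative gap was smaller than in the levels themselves. How many of all genes keep such an order was not counted. Per 100 TPM of mature neuron markers, Rtp1 stood at 5.71 to 5.80 in WT late and 4.86 to 5.30 in cKO late libraries, and Rtp2 at 2.87 to 3.05 and 2.41 to 2.53. Per 100 TPM of odorant receptor transcripts, Rtp1 stood at 18.4 to 19.0 and 16.8 to 17.6, and Rtp2 at 9.56 to 9.65 and 8.02 to 8.74. In early libraries, Rtp1 per 100 TPM of receptor transcripts was 10.32 to 10.50 in WT and 10.55 to 10.61 in cKO. The mature neuron sum rests mostly on Omp, Stoml3 and Gng13. Unlike Cnga4, Gnal was itself lower, at 1146 to 1267 TPM in WT late and 975 to 981 in cKO late libraries. It is a mature neuron marker named here after its values were seen. Ratios to single markers were not taken, and the part of cell composition in the Rtp values was not tested.

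Reep6 had higher values in cKO in both fractions. In early polysomes the cKO level was 133% of the WT level (log2 0.41, SE 0.12, adjusted p = 0.672, limma), and in late polysomes 121% (log2 0.27, SE 0.12, adjusted p = 0.542). Groups did not overlap in either fraction, which held for 19.6% of all genes in early and 20.5% in late polysomes in this direction. On lysate means the log2 value of Reep6 was 0.34 (SE 0.093, adjusted p = 0.367, limma), with no overlap of lysates, as for 22.7% of all genes. The adjusted p of this value ran from 0.0769 to 0.940 over the alternatives. Per 100 TPM of mature neuron markers, Reep6 stood at 0.448 to 0.490 in WT early and 0.595 to 0.670 in cKO early libraries. Microvillous cell markers were also higher in cKO early libraries, at 79.9 to 83.8 TPM beside 65.4 to 76.1 in WT early, with 0 of 5 tested markers passing. Their part in the Reep6 values was not tested.

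Reep1 and Reep5 differed little between genotypes. Reep1 had log2 values of -0.022 in early and -0.015 in late polysomes (SE 0.12 each), and Reep5 of 0.12 and 0.044 (SE 0.10 each), with WT and cKO libraries overlapping in both fractions. With 2 libraries a group, differences within these errors were not detectable.

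**Figure D4:**
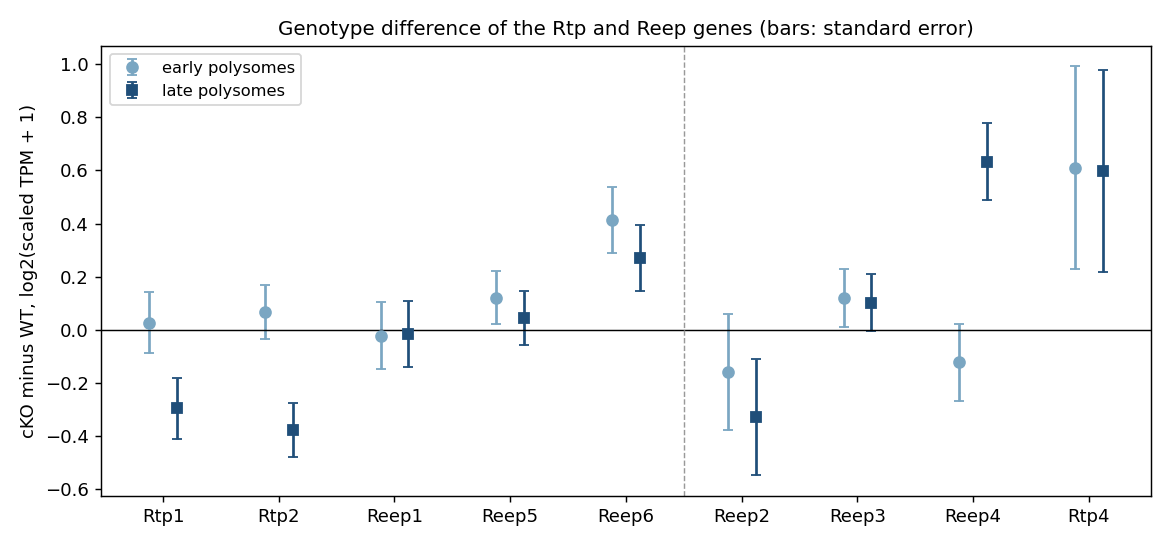
Log2 difference of cKO minus WT (y axis) in early (light circles) and late polysomes (dark squares) for the 5 genes, left of the dashed line, and the 4 other tested Rtp and Reep genes; bars are standard errors of the fit to 8 libraries. Rtp1 and Rtp2 are near 0 in early and below 0 in late polysomes, Reep6 is above 0 in both, and none passed after adjustment.

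The interaction asked whether the change from early to late polysomes differs between genotypes. None of the 5 genes passed (limma), where 0.00621% of all genes did, and 1 of 5, Rtp2, had an unadjusted p under 0.05, against 2.85%. The late-minus-early value was lower in cKO for Rtp2 (log2 -0.44, SE 0.14, adjusted p = 1.0) and for Rtp1 (log2 -0.32, SE 0.16, adjusted p = 1.0). For these 2 genes both cKO lysates lay below both WT lysates, as did 14.3% of all genes. Without the WT early library with the conflicting tag the values were -0.55 for Rtp2 and -0.43 for Rtp1, again with no pass. The Reep genes had interactions of 0.0071 for Reep1, -0.076 for Reep5 and -0.14 for Reep6 (SE 0.18, 0.14 and 0.18). The comparisons of genotype, fraction and interaction share libraries, so these values are not separate evidence.

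Likeness of profile was measured as the root-mean-square difference between log2 values, each centred on its mean over the 8 libraries, among 10579 genes with a mean scaled TPM of at least 10. The nearest gene to Rtp1 was Rtp2 (0.055 log2), and the nearest to Rtp2 was Rtp1. Rtp1 and Rtp2 may share some reads, and the part of such reads in this likeness was not tested. After Rtp2, Rtp1 was nearest to Gnal (0.058), the G protein subunit that couples odorant receptors to the cyclase, and to Klhl28 (0.062). Rtp2 was next nearest to Dpf3 (0.063), a chromatin remodeler subunit, and Klhl28 (0.063). Among all candidates Reep1 ranked at 7187 and Reep5 at 9233 in likeness to Rtp1, far down the list.

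Each Reep gene had other neighbours. Reep1 was nearest to Dnajb2 (0.027), a co-chaperone, Ext1 (0.041), an enzyme of heparan sulfate synthesis, and Stard7 (0.046), a lipid transfer protein. Reep5 was nearest to Kdf1 (0.024), Atp6v0b (0.044), a subunit of the vacuolar proton pump, and Pttg1ip (0.045). Reep6 was nearest to Vegfb (0.056), a growth factor, Smo (0.056), the transducer of hedgehog signalling, and Ppapdc1b (0.063). With 8 libraries in 4 groups, these measures rest on few independent points.

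**Figure D5:**
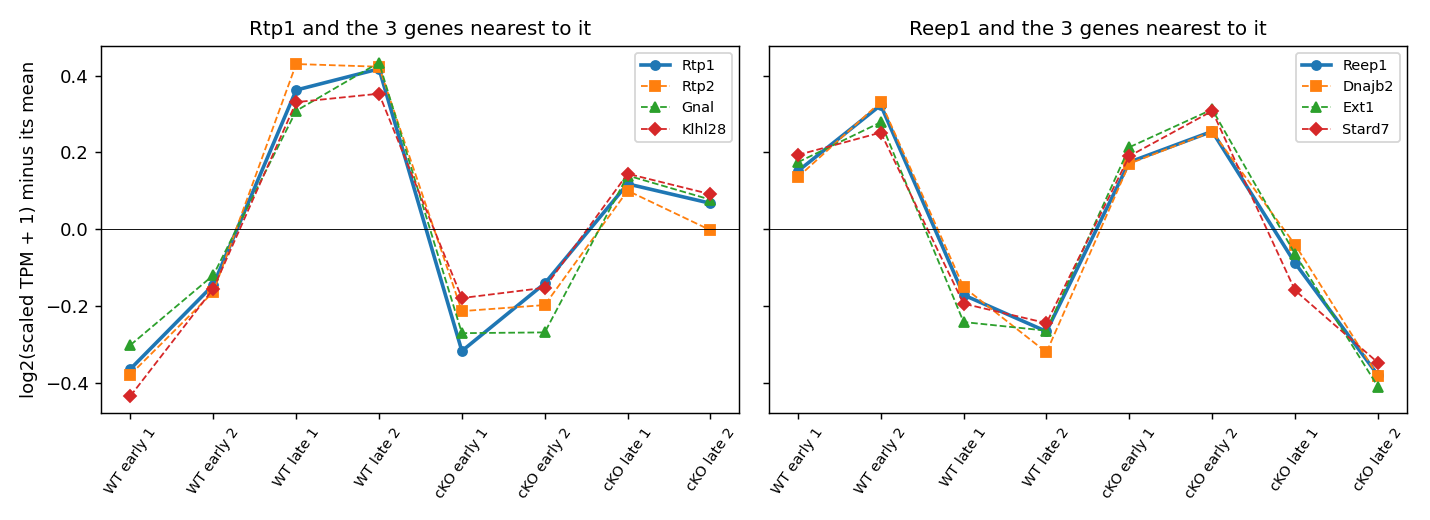
Centred log2(scaled TPM + 1) (y axis) over the 8 libraries (x axis) for Rtp1 and Reep1, each with its 3 nearest genes. Rtp2, Gnal and Klhl28 follow Rtp1, highest in WT late libraries, and Dnajb2, Ext1 and Stard7 follow Reep1, lowest in the late libraries.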

How the data were processed

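Polysome-associated RNA was sequenced from 8 libraries with a stranded low-input total RNA kit, per the labels' protocols. The authors deposited 1 table of TPM, each column summing to 1000000. The submitters' processing notes name FastQC, cutadapt, STAR, DESeq2 and mm10; versions, annotation, counting and read length are not given in the sources used here. The series' design text describes sorted transgenic cells, so the sample labels were followed. The Cre line is not reported here.

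Libraries were brought to one scale by median ratios of TPM (factors 0.940 to 1.07). The 4 groups were fitted together with limma 3.58.1 (R 4.3.3) on log2(scaled TPM + 1), with empirical Bayes and a mean-variance trend. This scale understates changes of low genes. Two-sided p-values were adjusted by Benjamini-Hochberg over the 16097 genes with a mean TPM of at least 1, with a threshold of 0.05. All 5 genes passed this filter. Genotype was also tested on lysate means. Whole reads were inferred for 19783 genes from the steps of TPM values (100%, tolerance 0.001). The fit was tested on simulated data with 200 genes changed 3-fold. It recovered 149 (interaction) to 190 (late against early on average) of them, with 12 (late against early in cKO) to 26 (lysate means) false calls. How well smaller changes, as in the 5 genes, are recovered was not tested.

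Early and late libraries of a lysate carry its name, so these pair by lysate; their deviations from group means correlated across genes at only 0.0863 (WT) and 0.0502 (cKO). Gene models came from GENCODE M21 on GRCm38. Other genes named were all other Rtp and Reep genes, up to 3 per direction of each list, and the 3 nearest profiles per gene. The genes and lists were chosen with earlier results of these data known. Alternatives were pseudocounts of 0.1 and 0.5, filters, scalings, no trend, each library left out, replicate blocks, only the 4 libraries compared, voom on inferred reads and other length classes. Voom used median-ratio library sizes in place of the TMM factors first planned, and this and the principal-transcript length were chosen after seeing the data.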

Additional observations from a re-analysis of the deposited data

Results flagged for a closer look

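Reep4 had late-minus-early values of opposite sign in WT and cKO lysates. Both WT lysates were lower in late polysomes (log2 -0.23 and -0.22), and both cKO lysates were higher (0.52 and 0.54). Of all genes tested, 14.9% had both cKO lysates above both WT lysates. The difference of 0.76 (SE 0.21) was tested as an interaction by limma and did not pass after adjustment (adjusted p = 1.0), and it rests on 108 to 167 inferred reads per library.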

How the results depend on the processing

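Over 595 alternative values of single genes, 561 kept their direction and side of the threshold, 13 lost a call, 2 gained one and 19 changed sign; each of the last was a small genotype or interaction value without a call. All 5 genes differed between fractions on average in each alternative run, and none differed between genotypes in any. Without single libraries, 4 to 5 genes differed between fractions in WT and 2 to 4 in cKO, 2 without cKO late replicate 2; the cause was not tested. For cKO against WT in early polysomes, Rtp1 was -0.032 without scaling and -0.047 under quantile normalization, and with 1 library left out it ran from -0.084 to 0.13, Rtp2 from -0.042 to 0.17 and Reep1 from -0.11 to 0.063. In late polysomes Reep1 ran from -0.16 to 0.13 and Reep5 from -0.0079 to 0.095. On lysate means Reep1 was 0.00029 with voom and ran from -0.072 to 0.034. Interactions ran from -0.14 to 0.15 for Reep1, -0.17 to 0.013 for Reep5 and -0.29 to 0.0054 for Reep6. Against its length class, Reep1 was 0.18 with the principal transcript. The lysate as a replicate block left 5 genes in WT, 3 in cKO (Rtp1 lost, adjusted p = 0.0599) and 5 on average, and changed no other call. WT and cKO share replicate numbers only; deviations of same-numbered libraries correlated at 0.332 (early) and 0.143 (late), and with the number as a replicate block 0 of the 5 passed in each genotype comparison. Depth is inferred, not stated, and is lowest in cKO late replicate 2, 1 of the 2 libraries behind the cKO late values.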
